A study of Mus musculus with 21 samples.

Results

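The IL-1 receptor family of mouse CD4 T cells was followed as 8 genes, taken by symbol from a table of 23415 genes: the receptors Il1r1, Il1r2, Il1rap, Il18r1, Il18rap and Il1rl1, the receptor antagonist Il1rn, and the adaptor Myd88. All 8 had a row in the table, where they stand in capitals as IL1R1, IL1R2, IL1RAP, IL18R1, IL18RAP, IL1RL1, IL1RN and MYD88. Their levels were read in 7 groups of cultured cells, over the 16 of 21 libraries that held at least 7000 genes at 1 TPM or more. TPM scales each library to the same total and corrects for transcript length, so that levels of different genes can be set side by side.

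The cells began as naive CD4+ T cells (CD44 low, CD62L high, CD25-) that were sorted from the lymph nodes and spleen of Il23r wt/eGFP mice. These mice are heterozygous for a reporter allele in which an IRES-eGFP disrupts Il23r, so every group, controls included, came from cells with 1 working copy of the receptor gene. The cells were activated with plate-bound antibodies to CD3 and CD28 and kept for 5 days with 1 of 4 cytokine mixtures. The first held IL-12, and the second IL-12 plus IL-21. The third held IL-1b, IL-6 and IL-23, and the fourth held human TGF-b and IL-6. TGF-b was used at 2 ng/ml, IL-6 at 25 ng/ml and every other cytokine at 20 ng/ml. Each culture held either IL-12 or IL-6, and IL-1b and IL-23 were used only together and with IL-6. Apart from IL-21 added to IL-12, the parts of single cytokines therefore cannot be told apart. No culture went without cytokines, so a rise in a culture cannot be told from a fall in the culture it is compared with. Cells were then sorted by eGFP, which reports Il23r transcription, into GFPpos and GFPneg fractions. The IL-12 culture is present as GFPneg only and the other cultures as both, with 3 libraries deposited for each of the 7 groups. The kept libraries were 2 of IL-12 GFPneg, 2 of IL-12+IL-21 GFPneg, 3 of IL-12+IL-21 GFPpos, 3 each of IL-1b+IL-6+IL-23 GFPneg and GFPpos, 2 of TGFb+IL-6 GFPneg and 1 of TGFb+IL-6 GFPpos. The labels give no age or sex of the mice and do not say whether replicates are separate animals or cultures, so p-values measure the spread between these libraries, which may be technical.

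IL-1 signals through Il1r1, which binds IL-1a or IL-1b and then recruits Il1rap, the shared co-receptor. Il1r2 binds the same ligands but lacks the intracellular signalling domain and is known as a decoy, and Il1rn encodes a secreted antagonist that occupies Il1r1 without recruiting the co-receptor. Il18r1 and Il18rap form the IL-18 receptor, known from Th1 cells, and Il1rl1 (ST2) is the receptor for IL-33, known from Th2 cells, regulatory T cells and mast cells. All signalling receptors of the family pass their signal to the adaptor Myd88 and on to NF-kB. IL-1 is known to support the development of IL-17-producing T helper cells.

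The kept libraries held 7522 to 9248 genes at 1 TPM or more, and the 5 left out held 190 to 5608. All 6 T cell markers were above 1 TPM in every kept library, with sums of 1339 to 2284 TPM. Of 10 myeloid and dendritic cell markers, Lyz2, Adgre1, Fcer1g, Tyrobp and Itgax were listed at 0 in every kept library, and the list summed to 0.28 to 3.15 TPM. Cd68 was at 1 TPM or more in 12 of the 16 libraries (highest 2.52 TPM), and Cd14 reached 1.37 TPM. Among 7 neutrophil markers, S100a8 and S100a9 were listed at 0 throughout, whereas Cxcr2 stood at 199 to 866 TPM, Ly6g at 2.43 to 42.6 TPM and Csf3r at 3.23 to 9.24 TPM. Il23r, the gene that carries the reporter, was at 21.7 to 38.9 TPM in the GFPpos libraries of the IL-1b+IL-6+IL-23 and the IL-12+IL-21 culture and at 3.04 to 7.56 TPM in their GFPneg libraries. In the TGFb+IL-6 culture Il23r was at 3.57 TPM in the GFPpos library and at 0.87 and 0.73 TPM in the GFPneg libraries.

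Il1r2, Il1r1 and Il1rn were highest in the IL-1b+IL-6+IL-23 culture, and Il18r1 and Myd88 were highest in the cultures with IL-12. Differences were fitted with limma on log2(TPM + 1), where the added 1 makes the change of low genes look smaller than it is, and a gene was called at a Benjamini-Hochberg adjusted p under 0.05 over 9592 tested genes. Going from IL-12+IL-21 to IL-1b+IL-6+IL-23 in GFPneg cells, 2 members were called higher and 2 lower, where 3.41% of all tested genes were called (1.25% higher, 2.16% lower). The same step in GFPpos cells gave 3 called higher and 2 lower, against 4.96% of all genes (1.38% higher, 3.59% lower). TGFb+IL-6 GFPneg cells had 2 members called lower than their IL-1b+IL-6+IL-23 counterparts, against 15.4% of all genes (4.83% higher, 10.6% lower). Ribosomal protein genes made up 41.5% and 42.0% of TPM in the TGFb+IL-6 GFPneg libraries, above the 31.1% to 38.9% of the other kept libraries, 4 of the 5 left-out libraries had 44.1% to 55.9%, and the part of this in the differences was not tested. Set against IL-12+IL-21 GFPneg cells they had 1 called higher and 3 lower, against 6.82% (2.01% higher, 4.81% lower). Adding IL-21 to IL-12 gave no called member in GFPneg cells, against 0.761% of all genes (0.313% higher, 0.448% lower). Between the GFPpos and GFPneg fractions 1 member was called higher with IL-1b, IL-6 and IL-23, against 0.427% of all genes (0.344% higher, 0.0834% lower). In the TGFb+IL-6 culture 1 was called lower, against 0.323% (0.261% higher, 0.0626% lower). In the IL-12+IL-21 culture none was called, against 0.156% (0.115% higher, 0.0417% lower). These comparisons share libraries with one another, so their results are not independent. In bulk libraries more cells with a transcript and more of it per cell cannot be told apart. Of 18 called member results, an interaction described further on included, 10 were no longer called when the 2 left-out libraries with the most genes were added, and with all 21 libraries 15 were no longer called and 1 reversed. 7 of the 8 genes passed the filter of at least 1 TPM in at least 3 libraries. Il1rap did not pass, and Il1r1 passed only through IL-1b+IL-6+IL-23 libraries. Il1rn passed only through libraries of the cultures with IL-6, and Il1rl1 only through libraries of IL-12 and IL-12+IL-21 cells.

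**Figure D1:**
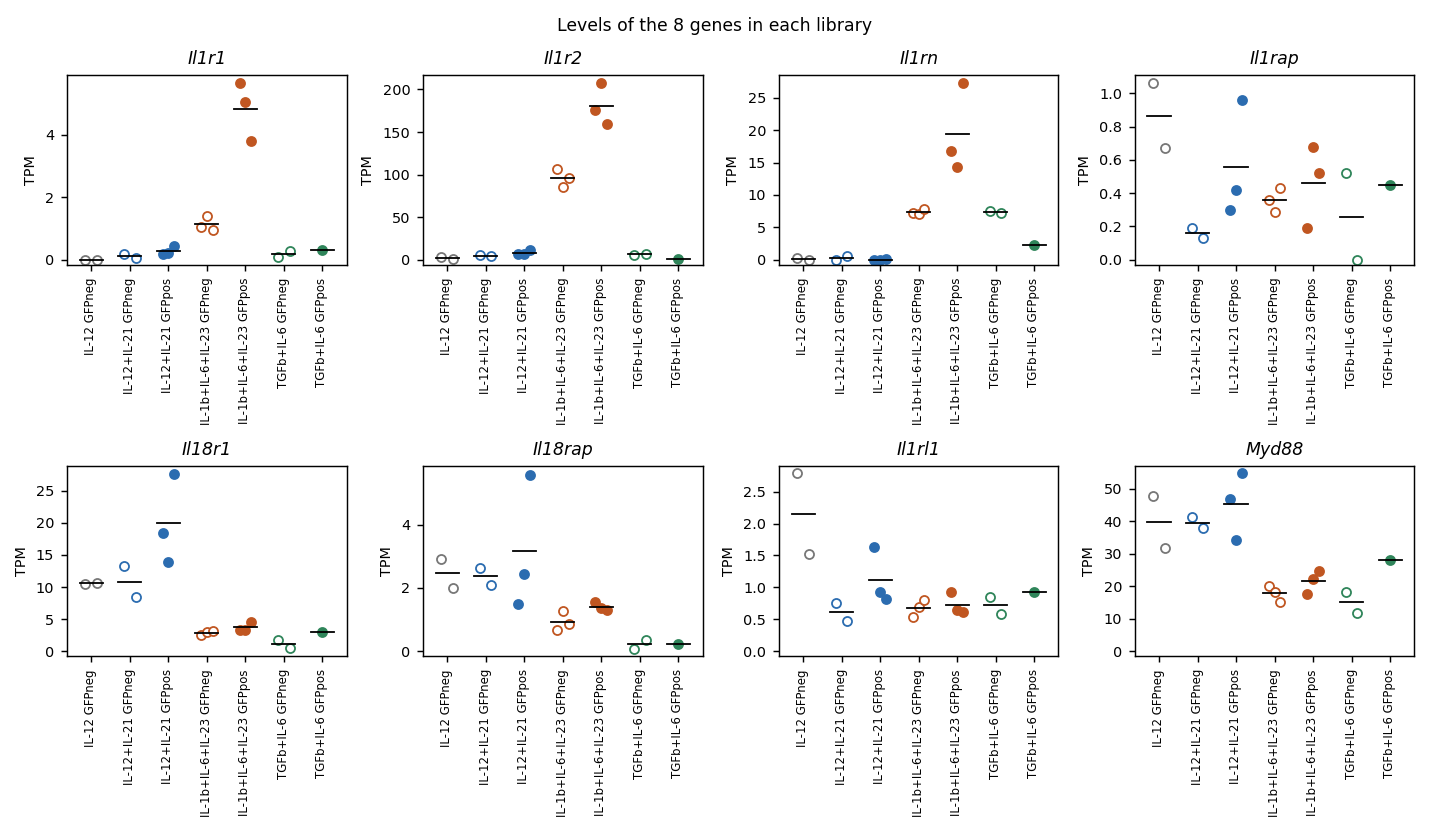
TPM of each of the 8 genes (vertical axes, each on its own linear scale) in the 16 kept libraries by group. Circles are libraries, open for GFPneg and filled for GFPpos, and horizontal lines are group means. Il1r2, Il1r1 and Il1rn peak in the IL-1b+IL-6+IL-23 GFPpos libraries, and Il18r1 and Myd88 in the IL-12+IL-21 GFPpos libraries.

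Il1r2, the decoy receptor, was the most abundant of the 8 genes in IL-1b+IL-6+IL-23 cells. It stood at 106, 85.2 and 95.6 TPM in the 3 GFPneg libraries (95.7 ± 10.6, SD, n = 3). The 3 GFPpos libraries had 176, 207 and 159 TPM (181 ± 24.3, SD, n = 3). Every other kept library was at 11.1 TPM or below. IL-12+IL-21 GFPpos cells had 6.59, 6.70 and 11.1 TPM, TGFb+IL-6 GFPneg cells 5.89 and 6.93 TPM, and these groups overlapped. IL-12+IL-21 GFPneg cells followed at 5.08 and 4.29 TPM, IL-12 GFPneg cells at 3.19 and 1.27 TPM, and the TGFb+IL-6 GFPpos library was lowest at 0.85 TPM.

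Against IL-12+IL-21 cells, Il1r2 rose in the IL-1b+IL-6+IL-23 culture by 4.09 ± 0.28 (log2 difference ± SE, adjusted p = 2.43e-07) in GFPneg cells. In GFPpos cells it rose by 4.34 ± 0.25 (adjusted p = 1.28e-08). TGFb+IL-6 GFPneg cells were lower than IL-1b+IL-6+IL-23 GFPneg cells by a log2 difference of -3.70 ± 0.28 (adjusted p = 2.42e-07). All 3 calls held in each fit that left out 1 library, 5, 6 and 5 fits respectively. Beside these differences, the neutrophil marker list summed to 384 to 614 TPM among IL-1b+IL-6+IL-23 GFPneg libraries and 369 to 498 TPM in IL-12+IL-21 GFPneg libraries, while S100a8 and S100a9 were listed at 0. It summed to 421 to 473 TPM in TGFb+IL-6 GFPneg libraries. In GFPpos libraries it summed to 287 to 338 TPM with IL-1b, IL-6 and IL-23 and to 204 to 405 TPM with IL-12 and IL-21. Myeloid markers summed to 1.33 to 3.15 TPM in IL-1b+IL-6+IL-23, 0.28 to 1.64 TPM in IL-12+IL-21 and 0.77 to 1.84 TPM in TGFb+IL-6 GFPneg libraries. In GFPpos libraries they summed to 1.54 to 2.52 TPM with IL-1b, IL-6 and IL-23 and to 0.3 to 2.53 TPM with IL-12 and IL-21. Lyz2 was listed at 0, and Cd68 reached 2.52 TPM among the kept libraries. Of 5 regulatory T cell markers, Foxp3 and Ikzf2 did not exceed 2.2 and 0.43 TPM in any kept library, whereas Il2ra (165 to 382 TPM), Ctla4 (39.6 to 299 TPM) and Tnfrsf9 (25.7 to 309 TPM) were high in all 16. That list summed to 236 to 330 TPM among IL-1b+IL-6+IL-23 GFPneg, 401 to 543 TPM among IL-12+IL-21 GFPneg and 555 to 595 TPM among TGFb+IL-6 GFPneg libraries. In the GFPpos libraries it summed to 294 to 417 TPM with IL-1b, IL-6 and IL-23 and to 454 to 625 TPM with IL-12 and IL-21. The part of these markers in the differences was not tested. An antisense gene, Gm16894, overlaps Il1r2 in GENCODE M21, and whether the counting used strand is not given in the sources used here, so reads from the pair cannot be told apart.

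Il1r1, the signalling receptor, was also highest in the IL-1b+IL-6+IL-23 culture, at much lower levels than Il1r2. IL-12 GFPneg libraries listed it at 0. The IL-12+IL-21 libraries stood at 0.18 and 0.06 TPM in GFPneg cells and at 0.19, 0.23 and 0.43 TPM in GFPpos cells. TGFb+IL-6 cells had 0.08 and 0.28 TPM in the GFPneg libraries and 0.32 TPM in the GFPpos library. These groups lay close together, below all libraries of the remaining culture. In the IL-1b+IL-6+IL-23 culture the GFPneg libraries had 1.06, 1.40 and 0.95 TPM (1.14 ± 0.23, SD, n = 3). The GFPpos libraries had 5.65, 5.06 and 3.79 TPM (4.83 ± 0.95, SD, n = 3). The fractions of this culture did not overlap, and its GFPpos libraries were the only ones above 1.40 TPM.

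Il1r1 passed the filter on low values only through IL-1b+IL-6+IL-23 libraries, so it entered these tests only through the culture in which it is high. Among GFPpos cells Il1r1 rose in the IL-1b+IL-6+IL-23 culture against IL-12+IL-21 by 2.18 ± 0.23 (log2, adjusted p = 1.15e-05). That call held in 6 of 6 fits that left out 1 library and without the filter (adjusted p = 1.54e-05). Among GFPneg cells the same difference was 0.93 ± 0.25 and was not called (adjusted p = 0.0572). That GFPneg difference was called with median-ratio scaling (adjusted p = 0.0413) and without the filter on low values (adjusted p = 0.0225). TGFb+IL-6 GFPneg cells were lower than IL-1b+IL-6+IL-23 GFPneg cells by a log2 difference of -0.86 ± 0.25 (adjusted p = 0.0312). This last call was lost in 4 of 5 fits that left out 1 library, those without IL-1b+IL-6+IL-23 GFPneg replicate 1 (adjusted p = 0.0582) or 2 (0.0816) and those without TGFb+IL-6 GFPneg replicate 1 (0.178) or 2 (0.0980).

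Il1rn, the antagonist, was near 0 in the cultures with IL-12 and present in both cultures with IL-6. IL-12 GFPneg libraries had 0.33 and 0 TPM, IL-12+IL-21 GFPneg libraries 0 and 0.52 TPM, and IL-12+IL-21 GFPpos libraries 0, 0 and 0.11 TPM. IL-1b+IL-6+IL-23 GFPneg cells had 7.15, 7.11 and 7.84 TPM. TGFb+IL-6 GFPneg cells had 7.59 and 7.15 TPM, within the range of the former group. The GFPpos libraries of the IL-1b+IL-6+IL-23 culture were highest at 16.8, 14.3 and 27.2 TPM (19.4 ± 6.86, SD, n = 3), and the TGFb+IL-6 GFPpos library had 2.22 TPM.

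Against IL-12+IL-21 GFPneg cells, Il1rn rose by 2.76 ± 0.30 (log2, adjusted p = 3.09e-05) in IL-1b+IL-6+IL-23 GFPneg cells. In TGFb+IL-6 GFPneg cells it rose by 2.76 ± 0.33 (adjusted p = 3.81e-05). Among GFPpos cells it rose by 4.25 ± 0.27 (adjusted p = 4.23e-08) from IL-12+IL-21 to IL-1b+IL-6+IL-23. All 3 calls held in each fit that left out 1 library. Il1rn passed the filter on low values only through libraries of the cultures with IL-6, where it is high, and the calls also held without the filter. Between TGFb+IL-6 and IL-1b+IL-6+IL-23 GFPneg cells the difference was 0.00 on the log2 scale, with a 95% interval of -0.63 to 0.64 (adjusted p = 1).

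The stretch just upstream of the first annotated base of Il1rn is printed because Il1rn was near 0 in the cultures with IL-12 and present in both cultures with IL-6. The stretch was read from RefSeq promoter windows (GRCm38.p6), which hold 250 bases before a transcript start, and bases in annotated exons were left out. Whole windows, annotated exons included, were searched on both strands for 5 patterns of letters: STAT (TTCNNNGAA), AP-1 (TGANTCA), kappaB, T-box (TCACACC) and ROR (AGGTCA). Of 32851 mouse windows of 250 bases, 7.02% held the STAT, 6.75% the AP-1, 1.41% the kappaB, 3.33% the T-box and 14.02% the ROR pattern. Capitals mark TGACCT, which is the ROR pattern on the other strand, and TGAGTCA, an AP-1 match. Il1rn, chr2:24336610-24336852, plus strand, 5′ to 3′:
Il1rn: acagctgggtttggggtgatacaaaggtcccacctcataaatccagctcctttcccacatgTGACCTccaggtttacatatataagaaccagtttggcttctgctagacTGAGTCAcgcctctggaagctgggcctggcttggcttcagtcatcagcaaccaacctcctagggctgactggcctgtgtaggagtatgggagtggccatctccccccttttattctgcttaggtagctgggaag
A match is a description of the letters only. Il1rn lies on chromosome 2 at 24336853 to 24351494 (plus strand) and has 3 RefSeq windows, of which the third held a kappaB match, GGGTTTTTCC, in an annotated exon.

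Il1rap, the co-receptor, was low everywhere and did not pass the filter. Its values were 1.06 and 0.67 TPM in IL-12 GFPneg cells, 0.19 and 0.13 TPM in IL-12+IL-21 GFPneg cells and 0.30, 0.42 and 0.96 TPM among IL-12+IL-21 GFPpos cells. IL-1b+IL-6+IL-23 cells had 0.36, 0.29 and 0.43 TPM in the GFPneg and 0.19, 0.68 and 0.52 TPM in the GFPpos fraction. TGFb+IL-6 cells had 0.52 and 0 TPM in GFPneg and 0.45 TPM in GFPpos libraries. In the order of group means all neighbouring groups overlapped but 1 pair, the lone TGFb+IL-6 GFPpos library and IL-1b+IL-6+IL-23 GFPneg cells, and only 1 of the 16 libraries reached 1 TPM. Both IL-12 GFPneg libraries lay above both IL-12+IL-21 GFPneg libraries. In the fit without the filter, over 14937 genes, that difference was -0.68 ± 0.24 (log2, adjusted p = 0.296), and Il1rap was called in no comparison.

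Il18r1, the ligand-binding chain of the IL-18 receptor, was highest in the cultures with IL-12. IL-12+IL-21 GFPpos cells were highest at 18.5, 13.9 and 27.6 TPM (20.0 ± 6.93, SD, n = 3). IL-12+IL-21 GFPneg cells had 13.2 and 8.48 TPM and IL-12 GFPneg cells 10.5 and 10.7 TPM, and these ranges overlapped. IL-1b+IL-6+IL-23 cells had 2.47, 3.02 and 3.15 TPM in the GFPneg and 3.36, 3.25 and 4.59 TPM in the GFPpos fraction. TGFb+IL-6 GFPneg libraries were lowest at 1.74 and 0.54 TPM, and the GFPpos library had 2.98 TPM. No library of the cultures with IL-12 came below 8.48 TPM, and no other kept library came above 4.59 TPM.

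Il18r1 fell from IL-12+IL-21 to IL-1b+IL-6+IL-23 among GFPneg cells (log2 difference -1.59 ± 0.32, adjusted p = 0.00952). That call was lost without IL-12+IL-21 GFPneg replicate 1 (adjusted p = 0.187). Among GFPpos cells it fell by 2.11 on the log2 scale (SE 0.29, adjusted p = 0.000186) and held in 6 of 6 fits that left out 1 library. It also fell from IL-12+IL-21 to TGFb+IL-6 GFPneg cells (-2.50 ± 0.35, adjusted p = 0.000227), a call that held in 4 of 4 such fits. From IL-1b+IL-6+IL-23 to TGFb+IL-6 GFPneg cells the difference was -0.91 ± 0.32 and was not called (adjusted p = 0.0673). It was called with a pseudocount of 0.1 (adjusted p = 0.0272), with median-ratio scaling (0.0483) and without TGFb+IL-6 GFPneg replicate 1 (0.0383).

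Il18rap, the signalling chain of the IL-18 receptor, was lower than Il18r1 in each kept library. It had 2.93 and 2.00 TPM in IL-12 GFPneg cells, 2.64 and 2.10 TPM in IL-12+IL-21 GFPneg cells and 1.50, 2.43 and 5.59 TPM among IL-12+IL-21 GFPpos cells. IL-1b+IL-6+IL-23 cells had 0.68, 1.27 and 0.85 TPM in the GFPneg and 1.55, 1.37 and 1.31 TPM in the GFPpos fraction. TGFb+IL-6 cells had 0.08 and 0.36 TPM in the GFPneg libraries and 0.21 TPM in the GFPpos library. The GFPpos libraries of IL-12+IL-21 overlapped those of IL-1b+IL-6+IL-23, and the 3 TGFb+IL-6 libraries lay below all others. Il18rap was lower in TGFb+IL-6 than in IL-12+IL-21 GFPneg cells by a log2 difference of -1.47 ± 0.38 (adjusted p = 0.0269). The call was lost in each of 4 fits that left out 1 library, at adjusted p = 0.198 and 0.0745 without IL-12+IL-21 GFPneg replicate 1 or 2 and at 0.140 and 0.0877 without TGFb+IL-6 GFPneg replicate 1 or 2. It was also lost without the filter on low values (adjusted p = 0.0553).

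The sequences around the Il18r1 start are printed because Il18r1 begins 136 bases after the last annotated base of Il1rl1. Levels of Il1rl1 were at most 2.79 TPM, and neighbouring groups overlapped in the order of means. Its IL-12 GFPneg libraries lay above every kept library outside IL-12+IL-21 GFPpos cells, whereas Il18r1 was highest in IL-12+IL-21 GFPpos cells. Both genes lie on the plus strand and the annotation is not given in the sources used here, so reads near this border may have been assigned to either gene. The stretch between them is chr1:40465416-40465551 (plus strand, from RefSeq windows of GRCm38.p6), and none of the 5 patterns was found in it. The exon-free part of the third RefSeq window of Il18r1, which lies inside the annotated span of the gene, is chr1:40465811-40465969, and capitals mark a STAT match, TTCCCAGAA. Both are given 5′ to 3′:
Il1rl1 to Il18r1: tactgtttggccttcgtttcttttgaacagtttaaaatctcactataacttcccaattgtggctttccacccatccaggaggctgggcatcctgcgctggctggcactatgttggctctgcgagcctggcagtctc
Il18r1: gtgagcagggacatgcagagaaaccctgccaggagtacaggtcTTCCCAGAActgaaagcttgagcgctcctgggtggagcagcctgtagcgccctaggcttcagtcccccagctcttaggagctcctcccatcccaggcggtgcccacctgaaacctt
The same window held another STAT match, TTCTGGGAA, in an annotated exon.

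Il1rl1, the IL-33 receptor, was at 2.79 TPM or below in every kept library. IL-12 GFPneg cells had 2.79 and 1.52 TPM, IL-12+IL-21 GFPneg cells 0.75 and 0.47 TPM and IL-12+IL-21 GFPpos cells 1.63, 0.92 and 0.81 TPM. IL-1b+IL-6+IL-23 cells had 0.53, 0.69 and 0.80 TPM in the GFPneg and 0.93, 0.64 and 0.62 TPM in the GFPpos fraction. TGFb+IL-6 cells had 0.85 and 0.58 TPM in GFPneg libraries and 0.92 TPM in the GFPpos library. Each group overlapped the next in the order of means. Both IL-12 GFPneg libraries lay above every kept library outside IL-12+IL-21 GFPpos cells. No comparison called Il1rl1, and its largest difference, from IL-12 to IL-12+IL-21 GFPneg cells, was -0.95 ± 0.30 (adjusted p = 0.169). Markers of cells known for this receptor differed in level. Of 6 mast cell and basophil markers, Cpa3, Mcpt8 and Fcer1a were listed at 0 in every kept library, and the list summed to at most 0.36 TPM. Of 5 Th2 markers, Il4 and Il5 were listed at 0, Il13 did not exceed 0.39 TPM, Gata3 stood at 0.42 to 7.95 TPM and Ccr8 at 2.23 to 32.1 TPM. The Th2 list summed to 18.2 to 23.2 TPM in IL-12 GFPneg cells, where Il1rl1 was highest, and to 33.1 TPM in the TGFb+IL-6 GFPpos library. Il2ra, Ctla4 and Tnfrsf9 of the regulatory T cell list were high throughout, as given above, and Foxp3 was not.

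Myd88, the adaptor, was the most abundant of the 8 genes in each library of the cultures with IL-12 and with TGF-b. IL-12 GFPneg cells had 47.7 and 31.9 TPM, IL-12+IL-21 GFPneg cells 41.3 and 37.8 TPM and IL-12+IL-21 GFPpos cells 46.9, 34.1 and 54.9 TPM. IL-1b+IL-6+IL-23 cells had 20.2, 18.1 and 15.02 TPM in the GFPneg and 17.5, 22.2 and 24.6 TPM in the GFPpos fraction. TGFb+IL-6 cells had 18.3 and 11.8 TPM in the GFPneg libraries and 28.1 TPM in the GFPpos library. No library with IL-12 was below 31.9 TPM and no other kept library was above 28.1 TPM.

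Myd88 fell from IL-12+IL-21 to IL-1b+IL-6+IL-23 among GFPneg cells (log2 difference -1.12 ± 0.26, adjusted p = 0.0246) and among GFPpos cells (-1.03 ± 0.24, adjusted p = 0.0146). It also fell from IL-12+IL-21 to TGFb+IL-6 GFPneg cells (-1.37 ± 0.29, adjusted p = 0.00705). The first call was lost in 4 of 5 fits that left out 1 library, those without IL-12+IL-21 GFPneg replicate 1 (adjusted p = 0.215) or 2 (0.132) and IL-1b+IL-6+IL-23 GFPneg replicate 2 (0.0566) or 3 (0.0913), and without the filter on low values (0.0541). The GFPpos call was lost without IL-12+IL-21 GFPpos replicate 1 (0.0627) or 3 (0.0791) and without IL-1b+IL-6+IL-23 GFPpos replicate 1 (0.0831). The call against TGFb+IL-6 was lost without IL-12+IL-21 GFPneg replicate 1 (0.0715) or TGFb+IL-6 GFPneg replicate 2 (0.128).

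A stretch upstream of the RefSeq transcript start of Myd88 is printed because Myd88 and Il18r1 moved the same way between cultures. Capitals mark TCACACC, a T-box match, and TTCTCGGAA, a STAT match. The gene lies on the minus strand of chromosome 9 at 119335934 to 119341411 in GENCODE M21, and the stretch, which lies inside that span and outside annotated exons, is chr9:119340042-119340268, read 5′ to 3′ on the minus strand from RefSeq (GRCm38.p6):
Myd88: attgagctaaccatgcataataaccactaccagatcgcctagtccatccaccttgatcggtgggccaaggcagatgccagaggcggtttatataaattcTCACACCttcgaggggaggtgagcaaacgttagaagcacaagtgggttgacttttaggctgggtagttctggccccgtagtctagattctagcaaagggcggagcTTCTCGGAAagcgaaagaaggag
Among the other members, a STAT match, TTCAAGGAA, was found in the Il1r2 window, where it runs into an annotated exon. A ROR match was found in the second Il1rl1 window, and no pattern was found in the windows of Il1r1, Il1rap and Il18rap. No match says only that these letters are not in this window.

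**Figure D2:**
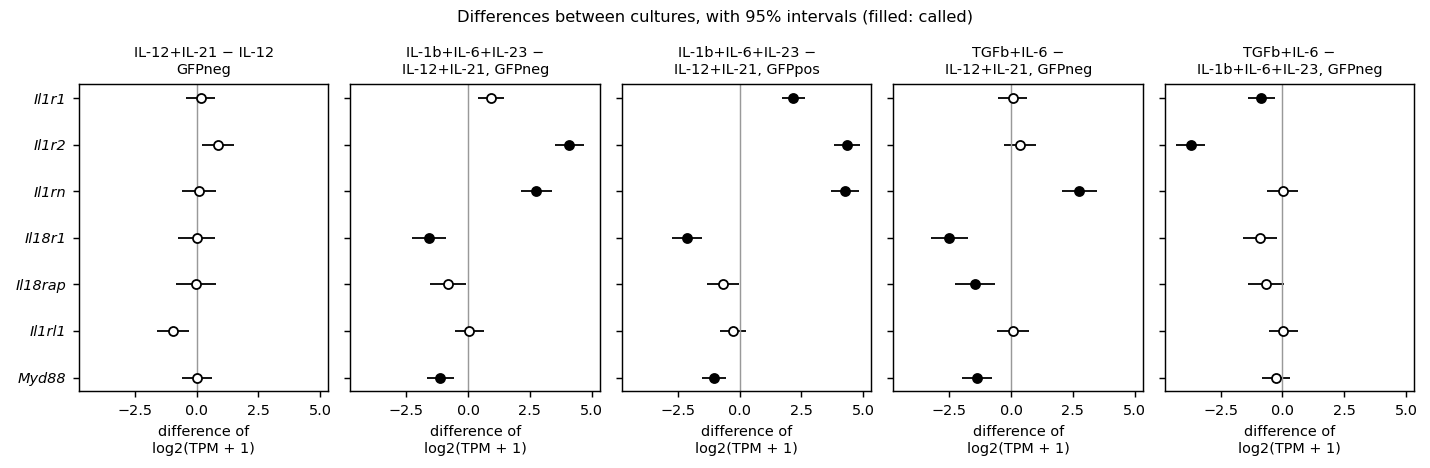
Differences between cultures in log2(TPM + 1) (horizontal axes) for the 7 tested genes, 1 panel per comparison. Points are limma estimates with 95% intervals, and filled points were called. Il1r2 stands at 4.09 and 4.34 in the panels of IL-1b+IL-6+IL-23 minus IL-12+IL-21, and Il18r1 and Myd88 lie left of 0 there and in TGFb+IL-6 minus IL-12+IL-21.

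Read by culture, IL-21 added to IL-12 moved no member past the threshold in GFPneg cells. The differences nearest to it were Il1rl1, given above, and Il1r2 at 0.88 ± 0.30 (adjusted p = 0.198), while Il18r1 differed by 0.00 with a 95% interval of -0.75 to 0.75. Both libraries of IL-12 GFPneg cells lay below both of IL-12+IL-21 GFPneg cells for Il1r2. Over all tested genes, 30 were called higher and 43 lower in this comparison, and 38 and 23 after scaling each library by the median ratio to a common reference, which centres the genes of a library on the same level. For TGFb+IL-6 against IL-1b+IL-6+IL-23 this scaling moved the median difference of all genes from -0.23 to -0.01 and the calls from 463 higher and 1015 lower to 837 and 727. For TGFb+IL-6 against IL-12+IL-21 the median moved from -0.21 to 0.01 and the calls from 193 and 461 to 405 and 368. For the GFPpos fractions of IL-1b+IL-6+IL-23 and IL-12+IL-21 the median moved from -0.15 to 0.02 and the calls from 132 and 344 to 227 and 255. The called members kept their direction and their call under this scaling, and Myd88 then stood at -1.09 ± 0.21 in TGFb+IL-6 against IL-12+IL-21 GFPneg cells and at -0.82 ± 0.17 between the GFPpos fractions.

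Within cultures, the GFPpos fraction of IL-1b+IL-6+IL-23 cells had more Il1r1, by 1.44 ± 0.23 (log2, adjusted p = 0.00668). That call held in 6 of 6 fits that left out 1 library and was lost with a pseudocount of 0.1 (1.99 ± 0.59, adjusted p = 0.325). Il1r1 passed the filter on low values only through libraries of this culture, and the call also held without the filter (adjusted p = 0.0131). Il1rn differed by 1.24 ± 0.27 (adjusted p = 0.0631) and Il1r2 by 0.91 ± 0.25 (adjusted p = 0.206). For both, each GFPpos library lay above each GFPneg library, but neither was called. Il18r1, Il18rap, Il1rl1 and Myd88 differed by 0.05 to 0.33 in this culture. Over all genes the calls were 33 higher and 8 lower, and 25 and 13 after median-ratio scaling. With 3 libraries against 3, an exact permutation test of a single gene cannot give a two-sided p below 0.1.

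In IL-12+IL-21 cells no member was called between the fractions, and 1392 of all tested genes, 2 members among them, had an unadjusted p under 0.05. Il18r1 differed by 0.80 ± 0.32 (adjusted p = 0.261) and Il1r2 by 0.65 ± 0.28 (adjusted p = 0.297), with each GFPpos library above both GFPneg libraries. Il1r1 differed by 0.19, with a 95% interval of -0.34 to 0.73, and Il1rn by -0.25, with an interval of -0.89 to 0.38. The median of all genes was 0.24 here and 0.01 after median-ratio scaling, which changed the calls from 11 higher and 4 lower to 2 and 6. Under that scaling Myd88 moved from 0.17 to -0.11 and Il18rap from 0.19 to -0.02.

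In TGFb+IL-6 cells the fractions compare 1 GFPpos library with 2 GFPneg libraries, and the lone library is assumed to vary like the other groups. Il1r2 was lower in the GFPpos library, at 0.85 against 5.89 and 6.93 TPM, by a log2 difference of -1.998 ± 0.37 (adjusted p = 0.0389). The call was lost without TGFb+IL-6 GFPneg replicate 1 (adjusted p = 0.116) or 2 (0.166). With the 2 libraries of at least 7000 genes above 0 added, of which 1 is a TGFb+IL-6 GFPpos library with Il1r2 listed at 0, the difference was -2.44 ± 0.60 (adjusted p = 0.915). Il1rn was lower by -1.38 ± 0.40 (adjusted p = 0.145) and Myd88 higher by 0.89 ± 0.35 (adjusted p = 0.226). The median of all genes moved from 0.37 to 0 with median-ratio scaling, and the calls from 25 higher and 6 lower to 7 and 12. Il1r2 then stood at -2.37 ± 0.31 (adjusted p = 0.00686).

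**Figure D3:**
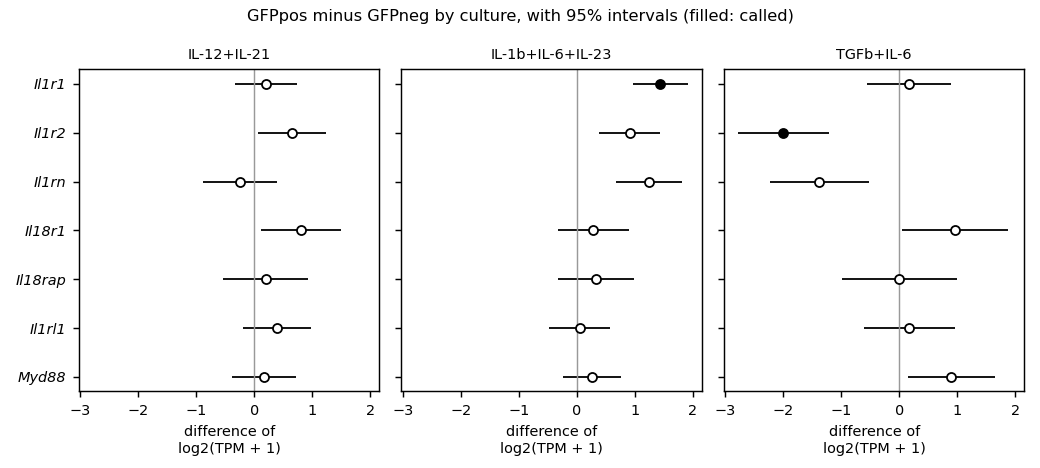
GFPpos minus GFPneg in log2(TPM + 1) (horizontal axes) for the 7 tested genes in 3 cultures. Points are limma estimates with 95% intervals, and filled points were called. Il1r1 is filled at 1.44 in the IL-1b+IL-6+IL-23 panel and Il1r2 at -1.998 in the TGFb+IL-6 panel, which rests on 1 GFPpos library.

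Whether the fractions differed more in one culture than in another was tested as an interaction. Between IL-1b+IL-6+IL-23 and IL-12+IL-21, 0 of 9592 genes were called by limma, and 474 had an unadjusted p under 0.05. Il1r1 differed by 1.25 ± 0.34 (adjusted p = 0.627) and Il1rn by 1.49 ± 0.40 (adjusted p = 0.625), so that a larger difference between fractions with IL-1b was not shown for either. An interaction between TGFb+IL-6 and IL-1b+IL-6+IL-23, chosen after the data were seen, called Il1r2 (-2.91 ± 0.45, adjusted p = 0.0186), where 0.0834% of all genes were called (0.0626% higher, 0.0209% lower). It was lost without IL-1b+IL-6+IL-23 GFPpos replicate 2 (adjusted p = 0.0504) and without TGFb+IL-6 GFPneg replicate 1 (0.0571) or 2 (0.0916). Il1rn differed by -2.62 ± 0.48 in the same interaction (adjusted p = 0.0654) and was called with median-ratio scaling (0.0231) and without the filter (0.0184). Of all tested genes, 6 passed as higher and 2 as lower, and 7 and 4 after median-ratio scaling.

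As TPM is scaled for length, the make-up of the family can be read within a library. In the GFPpos libraries of the IL-1b+IL-6+IL-23 culture the 8 genes summed to 222 to 255 TPM, of which Il1r2 made up 71.8% to 81.4%. In the GFPneg cells of that culture the sum was 117 to 139 TPM, with 72.7% to 76.7% from Il1r2. IL-12 and IL-12+IL-21 libraries summed to 48.1 to 101 TPM, of which Myd88 made up 54.1% to 70.2%, and TGFb+IL-6 libraries to 27.6 to 36.1 TPM. Il1r2 exceeded Il1r1 by a ratio of 60.8 to 101 among IL-1b+IL-6+IL-23 GFPneg and of 31.2 to 42.0 in GFPpos libraries, without overlap. The antagonist exceeded Il1r1 by a ratio of 5.08 to 8.25 in GFPneg and of 2.82 to 7.18 in GFPpos libraries, with overlap. In TGFb+IL-6 GFPneg cells Il1rn and Il1r2 were at similar levels, at a ratio of 1.03 and 1.29, whereas in IL-1b+IL-6+IL-23 cells Il1rn was 0.067 to 0.171 of Il1r2. Decoy to IL-18 receptor, the ratio of Il1r2 to Il18r1 was 28.2 to 63.7 among IL-1b+IL-6+IL-23 libraries and 0.119 to 0.506 in those with IL-12.

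**Figure D4:**
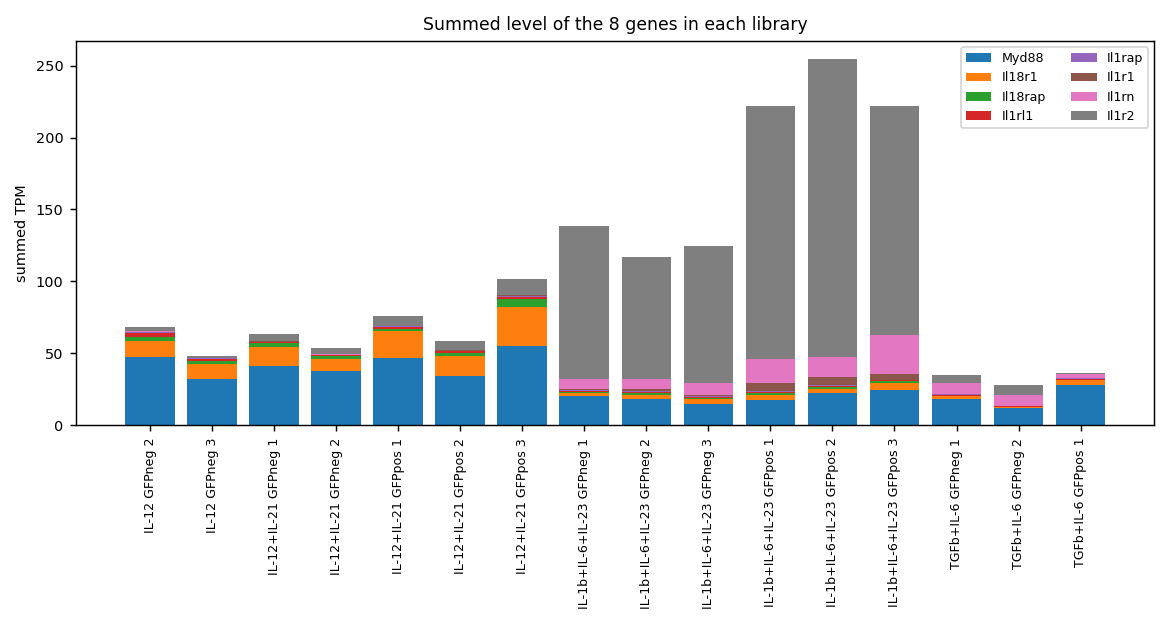
Summed TPM of the 8 genes (vertical axis, from 0) in each of the 16 kept libraries, with 1 bar per library divided by gene. Il1r2 fills 71.8% to 81.4% of the IL-1b+IL-6+IL-23 GFPpos bars, and Myd88 is the largest share of the bars of the other cultures.

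5 of the 8 genes lie in 1 cluster on chromosome 1, at 40074079 to 40551705 (GRCm38, GENCODE M21), a span of 477.6 kb with 6 protein-coding genes on the plus strand. Il1r2 (40074079 to 40125231) comes first, then Il1r1 (40225080 to 40317257), the IL-36 receptor gene Il1rl2, Il1rl1 (40429570 to 40465415), Il18r1 (40465552 to 40500854) and Il18rap (40515362 to 40551705). The genes at the 2 ends of the cluster were highest in different cultures. Il1r2 and Il1r1, 99848 bases apart, were highest with IL-1b, IL-6 and IL-23, and Il18r1 and Il18rap, 14507 bases apart, had their highest group means with IL-12. Il18rap was not called between IL-1b+IL-6+IL-23 and IL-12+IL-21 in GFPneg (log2 difference -0.81) or GFPpos cells (-0.67), and the GFPpos libraries overlapped. Between them, Il1rl2 did not exceed 2.68 TPM and Il1rl1 did not exceed 2.79 TPM. Il1rap lies outside the cluster, on chromosome 16 at 26581704 to 26730117.

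**Figure D5:**
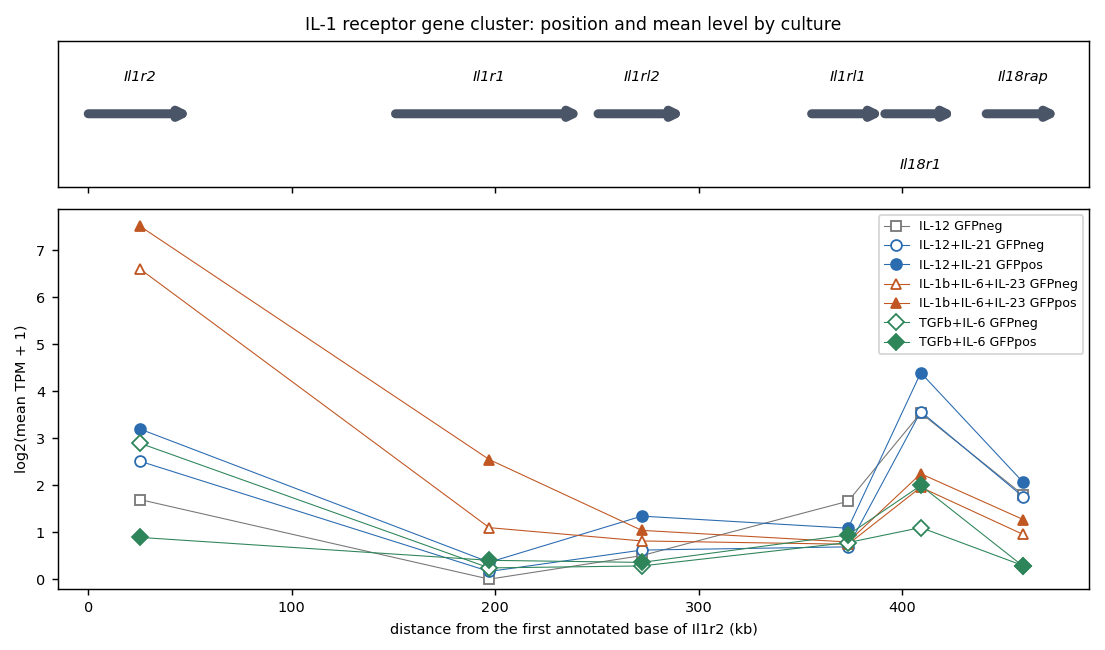
Upper panel, the 6 protein-coding genes of the cluster drawn to scale as arrows in the direction of transcription. Lower panel, log2 of the group mean TPM + 1 (vertical axis) at each gene's centre against the distance in kb from the first annotated base of Il1r2, with 1 symbol per group and lines that only join symbols of a group. Il1r2 is highest in the IL-1b+IL-6+IL-23 groups (means 95.7 and 181 TPM) and Il18r1 in the IL-12+IL-21 GFPpos group (mean 20.0 TPM).

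Over the 16 libraries, which share their groups, Pearson's r of log2(TPM + 1) was 0.89 between Il1r2 and Il1r1, 0.79 between each of them and Il1rn, 0.86 between Il18r1 and Il18rap and 0.93 between Il18r1 and Myd88. It was -0.79 between Il1rn and Il18r1 and -0.81 between Il1rn and Myd88. The tested genes with the highest r to each member were Iltifb (0.96), Dcn (0.95) and Tff1 (0.95) for Il1r1, and Il4i1 (0.95), Pou2f2 (0.93) and Tff1 (0.93) for Il1r2. For Il1rn they were the cytokine genes Il17a (0.92) and Il17f (0.92), with Upp1 (0.90). For Il18r1 they were Nabp1 (0.97), the costimulatory receptor gene Cd28 (0.97) and Snx10 (0.97), and for Il18rap Rpe, Gadd45g and Gm12250 (0.90, 0.90 and 0.89). For Il1rl1 they were the chemokine gene Ccl1 (0.87), Pros1 (0.82) and Ccdc122 (0.82), and for Myd88 they included Furin (0.94) and Cblb (0.93). Il17a itself was at 81.6 to 142 TPM among IL-1b+IL-6+IL-23 GFPneg and 615 to 1199 TPM in GFPpos libraries, and at 0.43 to 2.47 TPM in all libraries with IL-12.

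The ligands and regulators of the family were mostly low. Of the 18 symbols listed, 14 had a row, since 4 are newer names of genes listed under Il1f names, and 7 were tested. Il1b was listed at 0 in all 16 libraries, also in cells given IL-1b, and Il1a did not exceed 1.38 TPM and Il18 did not exceed 2.40 TPM. Sigirr, an inhibitory member of the family, was at 27.2 to 57.5 TPM across all groups. Il33, the ligand of Il1rl1, rose in IL-1b+IL-6+IL-23 against IL-12+IL-21 GFPpos cells (1.03, 2.46 and 1.51 TPM against 3 libraries at 0, log2 difference 1.38 ± 0.24, adjusted p = 0.00173), and it passed the filter only through the former libraries, so it was not tested without any 1 of them. Il18bp, which encodes the soluble inhibitor of IL-18, was higher with IL-12+IL-21 than with IL-12 alone in GFPneg cells (4.49 and 2.88 against 0 and 0.61 TPM, 1.86 ± 0.41, adjusted p = 0.0478). That call was lost in each of 4 fits that left out 1 of these libraries (adjusted p = 0.113 to 0.197). The list had no other call. Over all genes, 1.38% were called higher in the comparison that called Il33 and 0.313% in the one that called Il18bp.

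Of 18 genes for NF-kB factors and feedback, all tested, Nfkbia, which encodes the inhibitor IkB-alpha and is itself a target of NF-kB, was called in both fractions. It stood at 2362, 1803 and 2144 TPM in IL-1b+IL-6+IL-23 GFPneg cells against 532 and 402 TPM in IL-12+IL-21 GFPneg cells (2.18 ± 0.19, adjusted p = 4.01e-06). In GFPpos cells it was at 2192, 2000 and 2540 against 473, 377 and 576 TPM (2.25 ± 0.17, adjusted p = 4.02e-07). Tnip1, a further inhibitor of NF-kB, rose in the GFPpos comparison (1.00 ± 0.25, adjusted p = 0.0279), a call kept in 1 of 6 fits that left out 1 library. No other gene of the list was called in these comparisons, where 3.41% (GFPneg) and 4.96% (GFPpos) of all genes were. The list's median difference was 0.24 in GFPneg and 0.17 in GFPpos cells, against 0.01 and -0.15 over all tested genes. In TGFb+IL-6 against IL-1b+IL-6+IL-23 GFPneg cells, 6 of the 18 were called lower and none higher, against 10.6% lower and 4.83% higher over all genes, with Nfkbia (-1.65), Nfkbib (-1.33), Tnip1 (-1.63) and Nfkbiz (-1.77) at the smallest adjusted p (at most 0.00255). These 4 calls held in 5 of 5 fits that left out 1 library, and the other 2, Rel and Tnfaip3, named here after their values were seen, in 2 and 1 of 5. Against IL-12+IL-21, TGFb+IL-6 GFPneg cells had 2 called lower, where 4.81% of all genes were, Nfkbib (-0.85, adjusted p = 0.00536) and Tnfaip3 (-1.87, adjusted p = 0.0405), which encodes the deubiquitinase A20. Tnfaip3 was called in 0 and Nfkbib in 3 of 4 fits that left out 1 library.

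Of 16 genes of MyD88-dependent signalling, 13 were tested. None was called between IL-1b+IL-6+IL-23 and IL-12+IL-21 GFPneg cells, where 3.41% of all genes were. Among GFPpos cells the kinase gene Map3k8 was lower with IL-1b+IL-6+IL-23 (-0.97 ± 0.21, adjusted p = 0.0109). It was the only call of the list there, against 3.59% of all genes called lower and 1.38% higher. TGFb+IL-6 GFPneg cells had less Irak2, a kinase gene that acts downstream of Myd88, than IL-1b+IL-6+IL-23 cells (8.25 and 8.52 against 30.7, 19.5 and 20.96 TPM, -1.37 ± 0.24, adjusted p = 0.00111). Map3k8 was lower there too (-0.80 ± 0.24, adjusted p = 0.0312). These were the 2 calls of the list, against 10.6% of all genes called lower and 4.83% higher. Against IL-12+IL-21 GFPneg cells the same 2 genes were lower, Irak2 by -1.06 ± 0.27 (adjusted p = 0.0230) and Map3k8 by -1.08 ± 0.26 (adjusted p = 0.0164). In that comparison 4.81% of all genes were called lower and 2.01% higher. The calls of Map3k8 and of Irak2 were kept in 2 of 5 and 5 of 5 fits that left out 1 library in the former comparison and in 2 of 4 and 1 of 4 in the latter, and the GFPpos call of Map3k8 in 4 of 6.

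Of 7 inflammasome genes, whose caspase products process IL-1b and IL-18 or cleave gasdermin D, 5 were tested. Against IL-1b+IL-6+IL-23 GFPneg cells, TGFb+IL-6 GFPneg cells had 2 called lower, where 10.6% of all genes were. Against IL-12+IL-21 GFPneg cells they had 3 called lower and 1 higher, where 4.81% and 2.01% of all genes were. Casp4 was at 4.22 and 1.01 TPM in TGFb+IL-6 GFPneg cells against 25.1, 17.4 and 22.3 TPM in IL-1b+IL-6+IL-23 (-2.79 ± 0.36, adjusted p = 5.63e-05) and 35.4 and 29.9 TPM in IL-12+IL-21 GFPneg cells (-3.37 ± 0.39, adjusted p = 3.32e-05). These calls held in 5 of 5 and 4 of 4 fits that left out 1 library. Casp1 was lower in the same comparisons (-2.08 ± 0.41, adjusted p = 0.00253, and -1.98 ± 0.45, adjusted p = 0.0123). Gsdmd was lower and Pycard, the adaptor of the complex, higher in TGFb+IL-6 than in IL-12+IL-21 GFPneg cells (-1.24 ± 0.27, adjusted p = 0.00815, and 1.16 ± 0.27, adjusted p = 0.0142). Pycard was also higher in IL-1b+IL-6+IL-23 than in IL-12+IL-21 GFPneg cells (1.28 ± 0.25, adjusted p = 0.00659), where 1.25% of all genes were called higher. Without 1 library the Casp1 calls were kept in 4 of 5 and 2 of 4 fits, Gsdmd in 2 of 4, and Pycard in 2 of 4 and 4 of 5. No gene of these 4 lists was called between GFPpos and GFPneg cells of any culture, where 0.156% to 0.427% of all genes were.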

How the data were processed

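Bulk RNA sequencing (SMART-Seq2, which amplifies full-length cDNA) was deposited by the authors as 1 table of TPM values for 21 libraries. The tools named in the submitters' processing notes are RSEM 1.2.31, Bowtie2 2.2.9 and Trimmomatic 0.32, with the build GRCm38. Their settings, the annotation and the use of strand are not given in the sources used here. TPM keeps no read depth, so no counting intervals could be given, and an exact 0 may stand for an estimate that failed. Kept were the 16 libraries with at least 7000 genes at TPM of at least 1. limma 3.58.1 (R 4.3.3) was fitted to log2(TPM + 1) with a mean per group and a trended variance, over the 9592 genes that reached 1 TPM in 3 or more libraries, with Benjamini-Hochberg adjustment and calls at adjusted p under 0.05. The script was tested on simulated data. Alternatives were a pseudocount of 0.1, no filter, median-ratio scaling, all 21 libraries, the replicate number as a block, each library left out and, chosen after seeing the data, 18 libraries with at least 7000 genes above 0 and 1 further interaction. The members, pathway lists and markers were chosen with earlier results of these data known. From the pathway lists up to 4 called genes per comparison and list, with the smallest adjusted p, are named, and for each tested member the 3 genes with the highest correlation, of which 1 is not reported here. Gene positions are from GENCODE M21 and promoter windows from RefSeq, and all 8 members had both.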

Additional observations from a re-analysis of the deposited data

Results flagged for a closer look

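In the TGFb+IL-6 culture Il1r2 was lower in GFPpos than in GFPneg cells, and in the IL-1b+IL-6+IL-23 culture each GFPpos library was above each GFPneg library. The test of this difference between cultures, chosen after the data were seen, gave -2.91 on the log2 scale (limma, adjusted p = 0.0186). The TGFb+IL-6 GFPpos group is 1 library, and with the 2 libraries added that had at least 7000 genes above 0 the value was -3.35 (adjusted p = 0.965).

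Among the libraries left out, Il18r1 was at 195 TPM in TGFb+IL-6 GFPpos replicate 3, above the highest kept library, which had 27.6 TPM. That library held 1157 genes above 0, and the other 7 members were listed at 0 in it. Il1rl1 was at 5.00 TPM in IL-12 GFPneg replicate 1, which held 7512 genes above 0, and the highest kept library, also of IL-12 GFPneg cells, had 2.79 TPM.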

How the results depend on the processing

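TPM keeps no read depth, so the precision of low members such as Il1rap, Il1rl1 and Il1r1 is unknown, and group sizes of 1 to 3 libraries limit every test. Of the 18 called member results, median-ratio scaling kept 18, a pseudocount of 0.1 kept 17, no filter kept 16, 18 libraries kept 8 and all 21 libraries kept 2. Of the rest, 1 reversed: Myd88 between IL-1b+IL-6+IL-23 and IL-12+IL-21 GFPneg cells was 0.66 with all 21 libraries. In fits that left out 1 library, 69 of 92 called member results were kept and 23 lost. For calls of pathway genes, 78 were kept and 39 lost in such fits, none reversed, and median-ratio scaling kept 21 of 25, no filter 20, 18 libraries 2 and all 21 libraries 1. The cause of these changes was not tested.

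Counts of genes called are given first and of members called second. Between fractions of the IL-12+IL-21 culture (15 genes, 0 members), 8 genes were called with median-ratio scaling, 6 with all 21 libraries and 0 with 18, and 0 to 3 genes and 0 members without 1 library. Between fractions of the IL-1b+IL-6+IL-23 culture (41, 1), 23 genes and 0 members were called with a pseudocount of 0.1, 18 genes without the filter, 0 and 0 with all 21 libraries and 2 genes with 18, and 17 to 27 genes without 1 library. Between fractions of the TGFb+IL-6 culture (31, 1), 250 genes were called without the filter, 19 with median-ratio scaling, 0 and 0 with all 21 libraries, 1 and 0 with 18, and 8 and 0 without 1 library.

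Between GFPneg cells of IL-12+IL-21 and IL-12 (73, 0), 2 genes were called with all 21 libraries, 1 with 18 and 14 to 71 without 1 library. For IL-1b+IL-6+IL-23 against IL-12+IL-21 GFPneg cells (327, 4), 3 and 0 were called with all 21 libraries, 19 and 2 with 18, and 152 to 266 and 2 to 4 without 1 library. For TGFb+IL-6 against IL-1b+IL-6+IL-23 GFPneg cells (1478, 2), 16 and 0 were called with all 21 libraries, 108 and 1 with 18, 4 members with a pseudocount of 0.1, and 667 to 1410 and 1 to 2 without 1 library. For TGFb+IL-6 against IL-12+IL-21 GFPneg cells (654, 4), 1 and 0 were called with all 21 libraries, 48 and 1 with 18, and 308 to 488 and 2 to 3 without 1 library. Among GFPpos cells (476, 5), 32 and 2 were called with all 21 libraries, 68 and 3 with 18, and 317 to 467 and 4 to 5 without 1 library. The interaction of IL-1b+IL-6+IL-23 and IL-12+IL-21 (0, 0) had 3 genes called without the filter and 0 to 1 without 1 library. The interaction of TGFb+IL-6 and IL-1b+IL-6+IL-23 (8, 1) had 130 and 2 called without the filter, 2 members with median-ratio scaling, 0 and 0 with all 21 or 18 libraries, and 3 to 10 and 0 to 1 without 1 library.

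Groups share replicate numbers. Same-numbered libraries correlated in their deviations from group means by -0.0861 to 0.202 over 15 pairs (median 0.046). Others correlated by -0.202 to 0.112 over 29 pairs (median -0.029). In groups of 2 libraries the deviations mirror each other, so these values cannot show whether same-numbered libraries are paired. With the replicate number as a block, all 18 called member results kept their call. Genes called with the block were 23 between fractions of IL-12+IL-21, 135 between IL-12+IL-21 and IL-12, and 1 in the first interaction. Differences that reversed with the block, none called before, were Il18rap between TGFb+IL-6 fractions (0.11), Il18rap (0.13) and Myd88 (-0.024) between IL-12+IL-21 and IL-12, and Il1rl1 between TGFb+IL-6 and IL-1b+IL-6+IL-23 (-0.036).

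The remaining reversals concern differences that were not called. With median-ratio scaling they were Il18rap (-0.023) and Myd88 (-0.11) between IL-12+IL-21 fractions, Il1rl1 between TGFb+IL-6 fractions (-0.045) and in the interaction with TGFb+IL-6 (-0.067), Il18rap between IL-12+IL-21 and IL-12 (0.067) and Myd88 between TGFb+IL-6 and IL-1b+IL-6+IL-23 (0.037). A pseudocount of 0.1 reversed Il18rap between TGFb+IL-6 fractions (0.11) and Il18r1 between IL-12+IL-21 and IL-12 (-0.0011). With all 21 libraries the TGFb+IL-6 fractions gave Il1r1 -0.022, Il18rap 0.026 and Myd88 -0.49, IL-12+IL-21 against IL-12 gave Il18r1 -0.45 and Myd88 -0.35, and TGFb+IL-6 against IL-1b+IL-6+IL-23 gave Il1rn -1.02 and Il1rl1 -0.22. The first interaction then gave Il1r2 -0.58, Il18rap -0.45 and Myd88 -1.69, and the second Myd88 -0.74. With 18 libraries the TGFb+IL-6 fractions gave Il1r1 -0.033, Il18rap 0.038 and Myd88 -0.73, IL-12+IL-21 against IL-12 gave Il18rap 0.56, and the second interaction Myd88 -0.99.

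Without 1 library, differences that were not called reversed in 28 fits. The ranges over such fits were, between IL-12+IL-21 fractions, -0.55 to 0.050 for Il1rn and -0.20 to 0.50 for Il18rap, between IL-1b+IL-6+IL-23 fractions -0.035 to 0.10 for Il1rl1 (also -0.016), and between TGFb+IL-6 fractions -0.17 to 0.16 for Il18rap. For IL-12+IL-21 against IL-12 they were -0.21 to 0.40 for Il1rn (also -0.11), -0.29 to 0.29 for Il18r1 (also -0.012), -0.23 to 0.16 for Il18rap (also 0.084) and -0.27 to 0.30 for Myd88 (also -0.046). Il1rl1 ranged from -0.068 to 0.18 for IL-1b+IL-6+IL-23 against IL-12+IL-21. For TGFb+IL-6 against IL-1b+IL-6+IL-23, Il1rn ranged from -0.037 to 0.041 (also -0.017 and -0.021), Il1rl1 from -0.080 to 0.15 (also -0.029) and Myd88 from -0.55 to 0.048. For TGFb+IL-6 against IL-12+IL-21, Il1r1 ranged from -0.050 to 0.19 (also -0.0052) and Il1rl1 from -0.034 to 0.22 (also -0.022). In the first interaction Il18rap ranged from -0.17 to 0.53 and Myd88 from -0.10 to 0.24 (also -0.023 and -0.016).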
